A study of Mus musculus with 6 samples.

Results

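A set of 9 genes of the amyloid precursor and tau pathways were followed in the developing hippocampus of mice raised in room air or in hyperoxia. They are App, Aplp1, Aplp2, Bace1, Psen2, Mapt, Map2, Gsk3b and Cdk5. They were chosen by name, each matched 1 row of the 24935 genes in the deposited table, and all 9 had enough reads to be tested. RNA came from the left hippocampus of C57BL/6 pups on postnatal day 14 (P14), with 1 library per mouse. From P2 to P14 the 3 air-exposed mice were kept in room air and the 3 hyperoxia-exposed mice in 85% oxygen, in both groups with their dams. Whether mice of a group shared a litter is not given, so litter and exposure cannot be told apart. The labels name no transgene or deletion. Pups of both sexes were used by the study's methods, and the sex behind a library was not used here. The number of a library is that of its column and does not name an animal, and directions follow the group names of the columns. Log2 fold changes here, hyperoxia minus air, were 0.05 for App, 0.03 for Mapt, -0.42 for Prox1 and 0.41 for Cspg4. For these genes the study itself reports transcript changes of the opposite sign, of about the same size for App, Mapt and Cspg4. In the parts of the study that could be read, no gene named here was found with a transcript change of the same sign. The reason was not tested, so every rise or fall given here rests on the column names. The direction of the whole comparison is therefore not settled.

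The amyloid precursor protein, encoded by App, is a membrane protein of neurons and glia with a pair of close relatives, Aplp1 and Aplp2, that share roles in cell adhesion and synapse formation. Cutting by an alpha-secretase releases a soluble fragment, whereas cutting by the beta-secretase Bace1 followed by the gamma-secretase complex, whose catalytic subunit is a presenilin, releases the amyloid-beta peptide from App. Tau, encoded by Mapt, stabilizes microtubules in axons, and Map2 does so in dendrites. Both are phosphorylated by Gsk3b and Cdk5, which lowers the binding of tau to microtubules.

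Map2, Bace1 and Gsk3b mRNA levels rose and Aplp1 mRNA fell in hyperoxia-exposed mice, whereas App, Aplp2, Psen2, Mapt and Cdk5 did not pass the test. Levels are deposited normalized counts, which are reads divided by a size factor of the library. Changes are differences of log2(normalized count + 1), hyperoxia minus air, from limma fitted to 17778 genes, and a gene was called when its p adjusted by Benjamini-Hochberg was under 0.05. Thus 4 of 9 genes were called, 3 higher and 1 lower, where 30.5% of all tested genes were called, 14.9% higher and 15.6% lower in hyperoxia. The same 4 genes had groups that did not overlap, which was so for 46.1% of all tested genes. Of the 4 calls, that of Map2 held under all 16 other ways of processing that were tried, and those of Aplp1, Bace1 and Gsk3b held under 8, 10 and 9 of them. The median change of the 9 genes was 0.07, beside -0.01 over all tested genes. Because the RNA is of whole tissue, fewer cells of a type and less RNA per cell cannot be told apart.

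**Figure D1:**
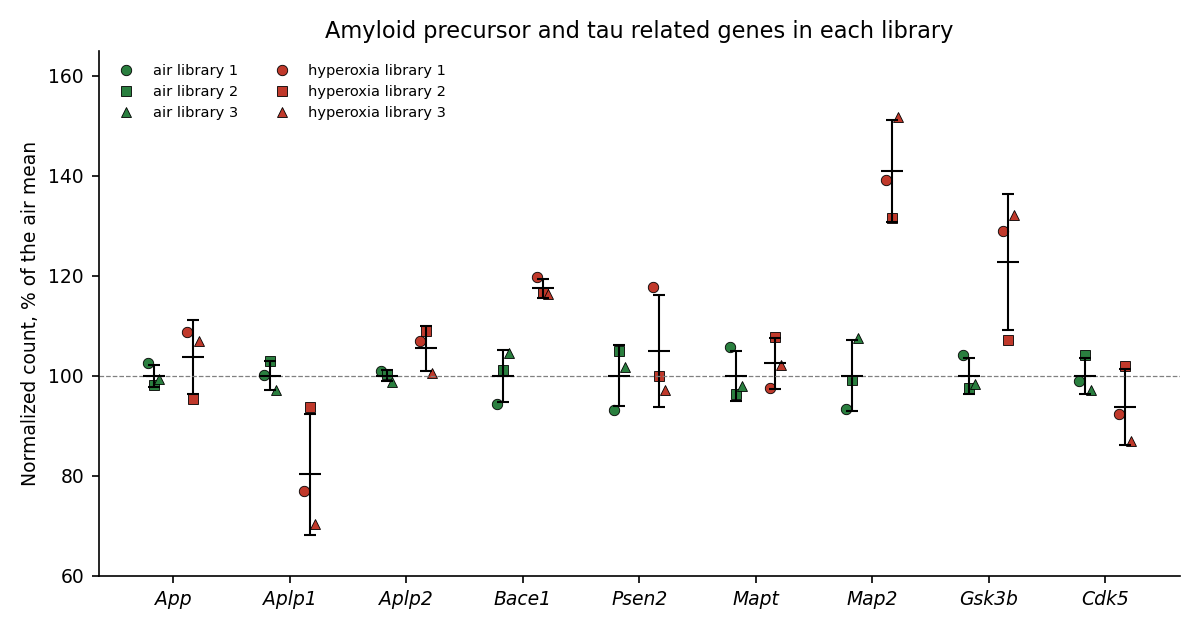
Normalized count of each gene in each library as a percent of the mean of the 3 air libraries (y axis), by gene (x axis), with air in green, hyperoxia in red and a different marker for each library. Horizontal bars are group means and error bars 1 SD (n = 3). Map2 shows the widest gap between the groups, and hyperoxia library 2 (square) lies nearest the air libraries for Aplp1, Map2 and Gsk3b.

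The libraries held 30384052 to 38746972 reads on genes, and the counting error of the 9 genes was at most 4.55% of a value (Psen2) and at most 1.87% for the other genes. The spread between mice was larger for most of them, with a coefficient of variation of 1.05% to 7.06% in air and 1.62% to 15.0% in hyperoxia. The first principal component of all tested genes took up 52.7% of the variance, with air and hyperoxia at opposite ends. The second took up 19.5% and set hyperoxia library 2 (38.7) apart from hyperoxia library 3 (-22.6). Hyperoxia library 2 had 1085 normalized counts of Tcf7l2, a thalamic marker, where the other libraries had 372 to 659. It was also highest for Calb2 (3720, others 1759 to 2383), but not for the thalamic markers Lhx9 (654), Prkcd (1292), Rora (1407) and Plekhg1 (1755). Hyperoxia library 3 had 7454 of Ttr, a choroid plexus marker, where the others had 167 to 887. What these marker levels contribute to the results was not tested. The markers of hippocampal neurons Neurod6 and Prox1 were present in every library but not at an equal level. Neurod6 was at 12336 to 14759 in air and 7161 to 9265 in hyperoxia (log2 fold change -0.75, limma adjusted p = 0.0014). Prox1 was at 7919 to 8665 in air and 5181 to 8533 in hyperoxia (-0.42, adjusted p = 0.081).

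The stretches before the start of Aplp1, Map2 and Gsk3b are shown because these 3 called genes have a RefSeq promoter entry and differ in it. They are from RefSeq on GRCm38.p6, 5′ to 3′ on the strand of the gene, and capitals mark the Sp1/KLF GC box GGGCGG on either strand. For Map2, 56 bases that lie inside a GENCODE M21 transcript were left out.

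Aplp1, chr7:30445583-30445832, minus strand: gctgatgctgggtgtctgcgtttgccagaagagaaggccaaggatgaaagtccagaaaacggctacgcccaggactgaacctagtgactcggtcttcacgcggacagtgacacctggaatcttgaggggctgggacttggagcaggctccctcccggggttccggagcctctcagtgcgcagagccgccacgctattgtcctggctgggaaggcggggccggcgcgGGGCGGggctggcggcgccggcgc

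Map2, chr1:66175079-66175272, plus strand: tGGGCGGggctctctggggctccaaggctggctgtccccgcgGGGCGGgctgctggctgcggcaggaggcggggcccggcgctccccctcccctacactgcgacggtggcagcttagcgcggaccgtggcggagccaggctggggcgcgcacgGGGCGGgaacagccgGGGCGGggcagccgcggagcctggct

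Gsk3b, chr16:38088751-38089000, plus strand: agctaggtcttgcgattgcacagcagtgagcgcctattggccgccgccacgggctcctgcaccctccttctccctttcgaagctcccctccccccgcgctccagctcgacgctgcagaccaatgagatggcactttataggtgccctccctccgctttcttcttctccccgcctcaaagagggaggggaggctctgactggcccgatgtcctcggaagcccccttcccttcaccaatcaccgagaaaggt

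The stretch of Map2 was the richest of the 3 in G and C (79.4%), with 22 CpG pairs and 4 GC boxes. It is 194 bases long, where the stretches of Aplp1 and Gsk3b have 250, and the full 250 bases of Map2 hold 34 CpG pairs and 5 GC boxes. The Aplp1 stretch was 66.0% G and C with 20 CpG pairs and 1 GC box. Gsk3b, at 62.0% G and C with 15 CpG pairs, had no GC box but held the TATA letters TATAAA on the other strand once, 117 bases before its start, and the letters CCAAT on either strand 3 times. Of 32851 RefSeq promoters of 250 bases, 32.7% held GGGCGG, 12.4% TATAAA and 33.8% CCAAT on either strand, and the median promoter was 52.4% G and C. These letters are a description of the sequence and not of binding. A RefSeq promoter was found for 6 of the 9 genes.

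The question asked of the amyloid precursor family was whether hyperoxia changed the mRNA of the precursor and its relatives. Of these 3 genes, Aplp1 fell and the other two did not pass the test. Aplp1 (ENSMUSG00000006651.8; GRCm38 chr7:30434982-30445535, minus strand), which is made mostly in neurons, had normalized counts of 38240, 39300 and 37088 in air libraries 1 to 3 and of 29385, 35794 and 26844 in hyperoxia libraries 1 to 3. Every hyperoxia library lay below every air library, with hyperoxia 2 the closest to air and hyperoxia 3 the lowest. Aplp1 fell by 20.3% (log2 fold change -0.33, SE 0.11, 95% interval -0.57 to -0.09, adjusted p = 0.044). The adjusted p was 0.052 with no filter on low values, 0.097 without the mean-variance trend and 0.35 with quantile normalization (-0.13). Leaving out 1 library at a time gave adjusted p from 0.098 to 0.15 for 5 of the 6 libraries, and 0.00053 without hyperoxia 2 (-0.44).

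App itself (ENSMUSG00000022892.10; chr16:84949685-85173766, minus strand) had 42262, 40473 and 40980 in air and 44879, 39276 and 44110 in hyperoxia. The groups overlapped, since hyperoxia 2 was the lowest and hyperoxia 1 the highest of the 6 libraries. The log2 fold change was 0.05 (95% interval -0.14 to 0.24, adjusted p = 0.68). Its direction depended on the normalization: it was 0.27 with quantile normalization (adjusted p = 0.034) and -0.21 once a smooth fit on transcript length and GC content had been taken out of every library (adjusted p = 0.043). Aplp2 (ENSMUSG00000031996.17; chr9:31149557-31211815, minus strand), the relative found in most tissues, had 16499, 16407 and 16166 in air and 17501, 17812 and 16435 in hyperoxia. Hyperoxia 3 fell among the air libraries and the other two lay above them, with a log2 fold change of 0.08 (95% interval -0.08 to 0.23, adjusted p = 0.43).

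The genes of the family were also compared with each other within a library, a measure that a size factor cannot move. Aplp1 stood at 2.34 times Aplp2 in air and at 1.77 times in hyperoxia (arithmetic means over the libraries of a group of the ratio of normalized counts). The log2 ratio was 1.21, 1.26 and 1.20 in air and 0.75, 1.01 and 0.71 in hyperoxia, so the groups did not overlap. The difference was -0.40, with an exact two-sided permutation p = 0.1 (adjusted over the 6 gene pairs tested, 0.3). This p is the smallest that 3 against 3 libraries allow, so no pair could reach 0.05. For Aplp1 against App the difference was -0.38 with overlapping groups (exact permutation p = 0.3, adjusted 0.36), and for Aplp2 against App it was 0.03 (exact permutation p = 1.0).

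The secretases were examined next, since they set which fragments the precursor gives. Bace1 rose. No alpha-secretase was called, though their changes were upward as well. Bace1 (ENSMUSG00000032086.12; chr9:45838580-45864399, plus strand) had 2725, 2922 and 3020 in air and 3458, 3365 and 3361 in hyperoxia. All hyperoxia libraries exceeded all air libraries, and they lay close together, with a coefficient of variation of 1.62%. The rise was 17.6% (log2 fold change 0.23, SE 0.07, 95% interval 0.08 to 0.39, adjusted p = 0.029). It was smaller after the correction for length and GC content (0.09, adjusted p = 0.29), was not called without the trend (adjusted p = 0.069), and leaving out air 1, air 2, air 3 or hyperoxia 1 gave adjusted p from 0.056 to 0.13. Exons of 3 genes on the other strand overlap those of Bace1, the most of them from Rnf214 (15.36% of the exon bases of Bace1), whose log2 fold change was 0.14 (adjusted p = 0.26). The kit kept the strand, but whether the counting used it is not stated in these sources, and without it reads of such places cannot be told apart.

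Bace2, the second beta-secretase, had 124, 146 and 134 in air and 156, 194 and 164 in hyperoxia. Its groups did not overlap either, but its log2 fold change of 0.34 did not pass the test (SE 0.13, adjusted p = 0.085). Of the alpha-secretases Adam9, Adam10 and Adam17, 0 of 3 were called by limma, by edgeR, by DESeq2 or at an unadjusted limma p under 0.05, with log2 fold changes of 0.19, 0.09 and 0.13 and adjusted p of 0.13, 0.49 and 0.23. Over all tested genes 30.5% were called by limma, and 3 genes are too few to set against that share. The groups of Adam9 did not overlap (1913, 1864 and 2012 in air, 2137, 2019 and 2463 in hyperoxia), as for 46.1% of all tested genes. Without hyperoxia 2, 1 of the alpha-secretases was called.

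Among 6 genes for gamma-secretase subunits, 1 fell and the others were not called, no more than the 30.5% of all tested genes. The count was 0 without each of 5 libraries in turn and 2 without hyperoxia 2. Psen2 (ENSMUSG00000010609.15; chr1:180227004-180263438, minus strand), which encodes a catalytic presenilin, had 510, 575 and 558 in air and 645, 547 and 532 in hyperoxia. Only hyperoxia 1 stood above the air libraries, and the log2 fold change was 0.07 (95% interval -0.16 to 0.29, adjusted p = 0.65). Ncstn, which encodes nicastrin, the subunit that receives the substrate, fell from 2746, 2613 and 2649 to 2378, 2209 and 2326. Its groups did not overlap, and its log2 fold change was -0.21 (SE 0.07, adjusted p = 0.039). That call was lost under 8 of the 16 alternatives.

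Of the scaffold subunits, Aph1b had 972, 1023 and 985 in air and 1288, 1021 and 1292 in hyperoxia, with hyperoxia 2 among the air values (0.27, adjusted p = 0.073). Aph1a (0.09, adjusted p = 0.50) and Aph1c (-0.02, adjusted p = 0.91) had overlapping groups, as did Psenen, the subunit that activates the presenilin (0.00, adjusted p = 1.0). The summed level of the 6 genes ranged from 5697 to 5823 in air and from 5611 to 5847 in hyperoxia. Psen2 against Bace1 within a library differed by -0.17 on the log2 scale between the groups, which overlapped (exact permutation p = 0.2, adjusted 0.3).

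**Figure D2:**
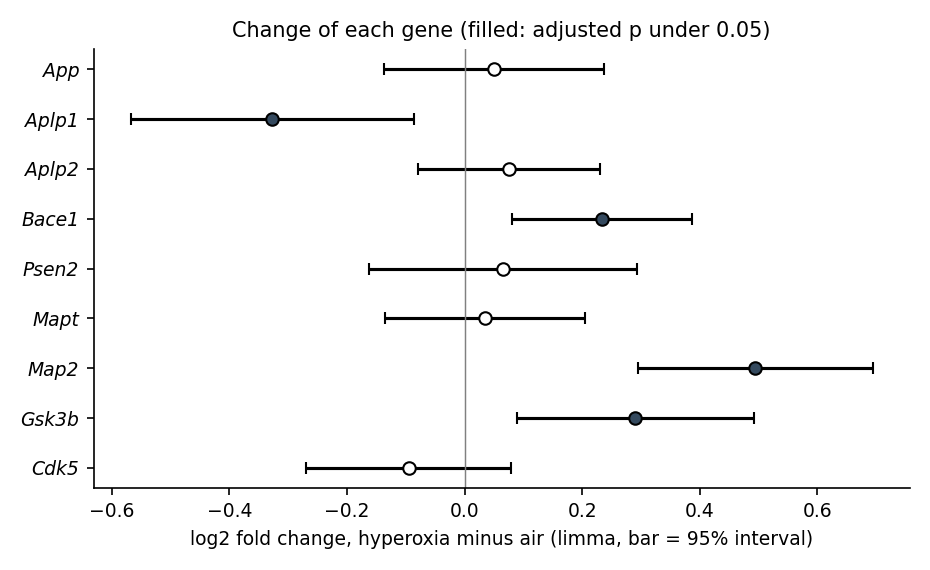
Change of each of the 9 genes as the log2 fold change, hyperoxia minus air (x axis), with its 95% interval from limma, 3 libraries per group. Filled points passed an adjusted p of 0.05, and these are Aplp1 below 0 and Bace1, Map2 and Gsk3b above 0.

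Of the microtubule-associated proteins, the dendritic Map2 rose and the axonal Mapt did not pass the test. Map2 (ENSMUSG00000015222.17; chr1:66175273-66442583, plus strand) had 26901, 28543 and 30946 in air and 40098, 37886 and 43712 in hyperoxia. The lowest hyperoxia library was well above the highest air library, and the spread within the groups was alike (SD 2034 and 2941, n = 3 each). Map2 rose by 40.9% (log2 fold change 0.49, SE 0.09, 95% interval 0.29 to 0.69, adjusted p = 0.0037). Over the 16 alternatives its change ran from 0.32 (length and GC correction) to 0.67 (quantile normalization), with adjusted p from 5.8e-07 to 0.026. Leaving out hyperoxia 2 or any other single library kept it between 0.44 and 0.55.

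Mapt (ENSMUSG00000018411.17; chr11:104231390-104332090, plus strand) had 20093, 18319 and 18637 in air and 18530, 20495 and 19425 in hyperoxia. The groups overlapped over most of their range, and the log2 fold change was 0.03 (95% interval -0.14 to 0.21, adjusted p = 0.75). Within a library Map2 stood at 1.52 times Mapt in air and 2.09 times in hyperoxia. The log2 ratio was 0.42, 0.64 and 0.73 in air and 1.11, 0.89 and 1.17 in hyperoxia, without overlap, a difference of 0.46 (exact permutation p = 0.1, the smallest possible, adjusted 0.3). These counts are per gene, so the splice forms of Mapt and Map2 that change during development were not resolved.

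Markers of cell types were set beside Map2, and their counts are to be read against the 14.9% of all tested genes called higher and 15.6% called lower. Of 8 neuron markers, 4 fell and 1 rose. Rbfox3, Snap25, Syn1 and Eno2 fell, with log2 fold changes of -0.46, -0.40, -0.48 and -0.31, and Stmn2 rose (0.41). Their summed level was 211489 to 222246 in air and 185357 to 200689 in hyperoxia, and none of them was at 0 in any library. Of 8 markers of hippocampal neurons 4 fell, and their sum was 47962 to 51922 in air and 28972 to 46431 in hyperoxia. Of 7 oligodendrocyte markers, among them the myelin gene Mbp, 6 fell (median -0.72), with a sum of 170858 to 261399 in air and 115026 to 142474 in hyperoxia, and of 8 astrocyte markers 3 rose and 2 fell. The part of these cell types in the changes of the 9 genes was not tested.

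The tau kinases were Gsk3b and Cdk5. Gsk3b (ENSMUSG00000022812.13; chr16:38089001-38246084, plus strand), glycogen synthase kinase 3 beta, had 8633, 8086 and 8161 in air and 10696, 8880 and 10965 in hyperoxia. No hyperoxia value reached down to an air value, but hyperoxia 2 exceeded air 1 by little, while hyperoxia 1 and 3 lay far above. Gsk3b rose by 22.3% (log2 fold change 0.29, SE 0.09, 95% interval 0.09 to 0.49, adjusted p = 0.036). After the correction for length and GC content the change was 0.03 (adjusted p = 0.75), and without the trend the adjusted p was 0.091. Leaving out 1 library at a time gave adjusted p from 0.08 to 0.13 for 5 of the 6 libraries and 0.00051 without hyperoxia 2 (0.39).

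Cdk5 (ENSMUSG00000028969.10; chr5:24418241-24423530, minus strand) had 3796, 3994 and 3726 in air and 3546, 3915 and 3339 in hyperoxia. Hyperoxia 2 fell among the air libraries and the other two below them, with a log2 fold change of -0.10 (95% interval -0.27 to 0.08, adjusted p = 0.38). The Gsk3b to Cdk5 ratio was 2.16 in air and 2.86 in hyperoxia, with a log2 difference of 0.39 and groups that overlapped (exact permutation p = 0.2, adjusted 0.3).

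Among the partners of these kinases, Gsk3a and Cdk5r2 fell. Gsk3a, the other GSK3 gene, had 4037, 3800 and 3758 in air and 2916, 2752 and 3053 in hyperoxia, and fell (log2 fold change -0.41, SE 0.07, adjusted p = 0.0030), also under all 16 alternatives. The Gsk3b to Gsk3a ratio was 2.15 in air and 3.50 in hyperoxia, a log2 difference of 0.70 without overlap, which was set up after the values were seen and has no test. Of the CDK5 activators, Cdk5r2, which encodes p39, had 19187, 16620 and 17794 in air and 15258, 14035 and 13231 in hyperoxia and fell (-0.33, SE 0.08, adjusted p = 0.016), but its adjusted p was 0.080 without air 1 and 0.059 without air 3. Cdk5r1, which encodes p35, had 7889, 7502 and 7537 in air and 8414, 7828 and 8258 in hyperoxia (0.10, adjusted p = 0.30). The Cdk5r1 to Cdk5r2 ratio, also chosen after the values were seen, was 0.43 in air and 0.58 in hyperoxia.

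**Figure D3:**
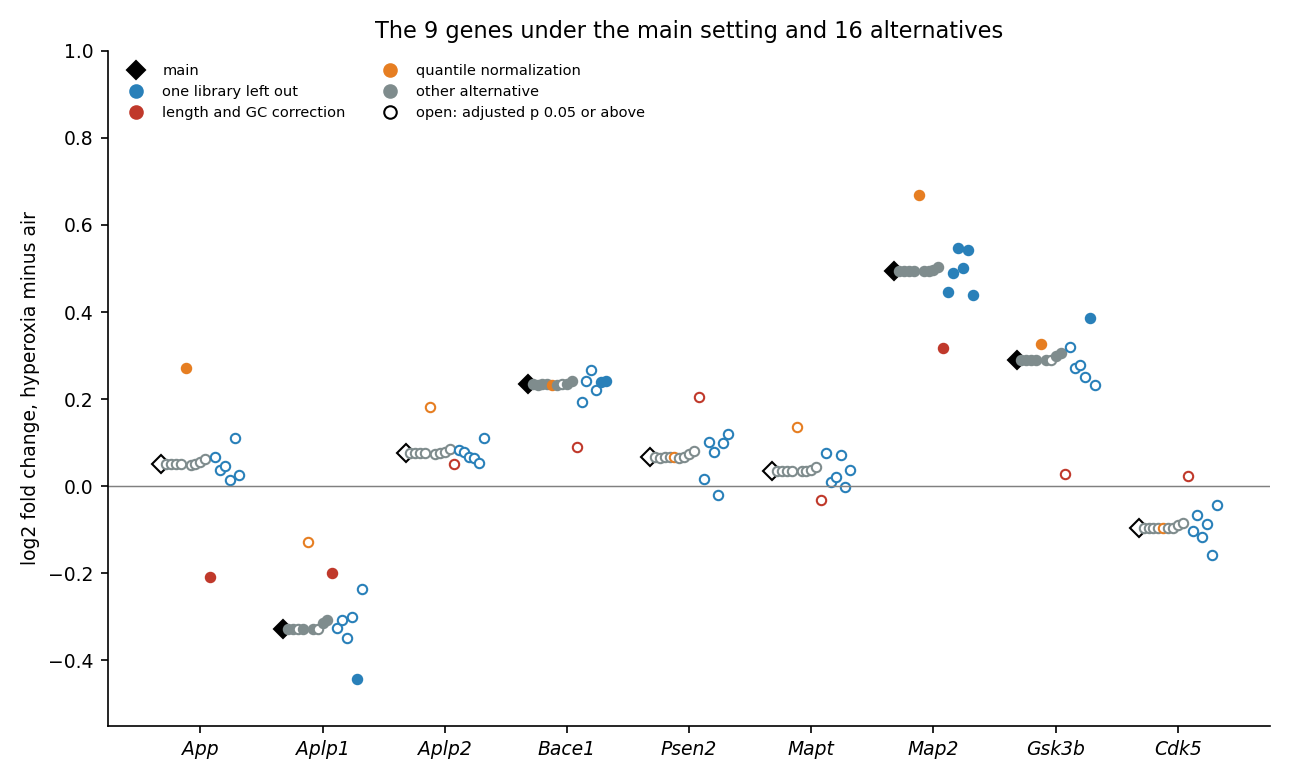
log2 fold change of each of the 9 genes, hyperoxia minus air (y axis), under the main setting (diamonds) and 16 alternatives (circles), with filled symbols for an adjusted p under 0.05. All symbols of Map2 are filled, the change of App runs from -0.21 to 0.27, and those of Gsk3b and Bace1 fall to 0.03 and 0.09 after the length and GC correction.

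The calls ran with transcript length over the whole table, which bears on these genes. Genes called higher in hyperoxia had a median longest transcript of 4506 bases and a GC content of 47.0%, genes called lower 2714 bases and 52.3%, and genes not called 3035 bases and 49.5%. Map2 (6258 bases, 47.8% GC), Gsk3b (8303 bases, 46.1%) and Bace1 (6058 bases) are long, though the GC content of Bace1 lay nearer the median of genes not called. App, nearly as long as Gsk3b (8167 bases, 46.1%), was not called. Aplp1 (2472 bases, 59.4%) is short and GC-rich. With each library's smooth trend on length and GC removed, Map2 stayed higher (0.32, adjusted p = 0.0037) and Aplp1 lower (-0.20, adjusted p = 0.047), while Gsk3b and Bace1 were no longer called. Whether the trend is technical or belongs to the tissue was not tested.

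Per kilobase of exon, Aplp1 was the most abundant of the 9 genes and Psen2 the least in both groups. In air the level per kilobase (mean ± SD, n = 3) was 12660 ± 367 normalized counts for Aplp1, 3173 ± 71.0 for App and 2784 ± 29.3 for Aplp2. Next came Mapt (2525 ± 126), Cdk5 (1771 ± 64.2) and Map2 (1751 ± 124), then Gsk3b (844 ± 30.2), Bace1 (455 ± 23.7) and Psen2 (126 ± 7.70). Neighbours in this order had ranges apart from each other, with the exception of Cdk5 and Map2. In hyperoxia Aplp1 was at 10170 ± 1529 and Map2, at 2466 ± 179, stood before Cdk5 (1660 ± 135) and overlapped Mapt (2587 ± 131). App and Aplp2 also overlapped there, and the other places were those of air. By the longest transcript in place of the union of exons, 4 genes in air had another place, with Map2 at place 3 (4602 per kilobase), so the place of Map2 rests on the length used.

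**Figure D4:**
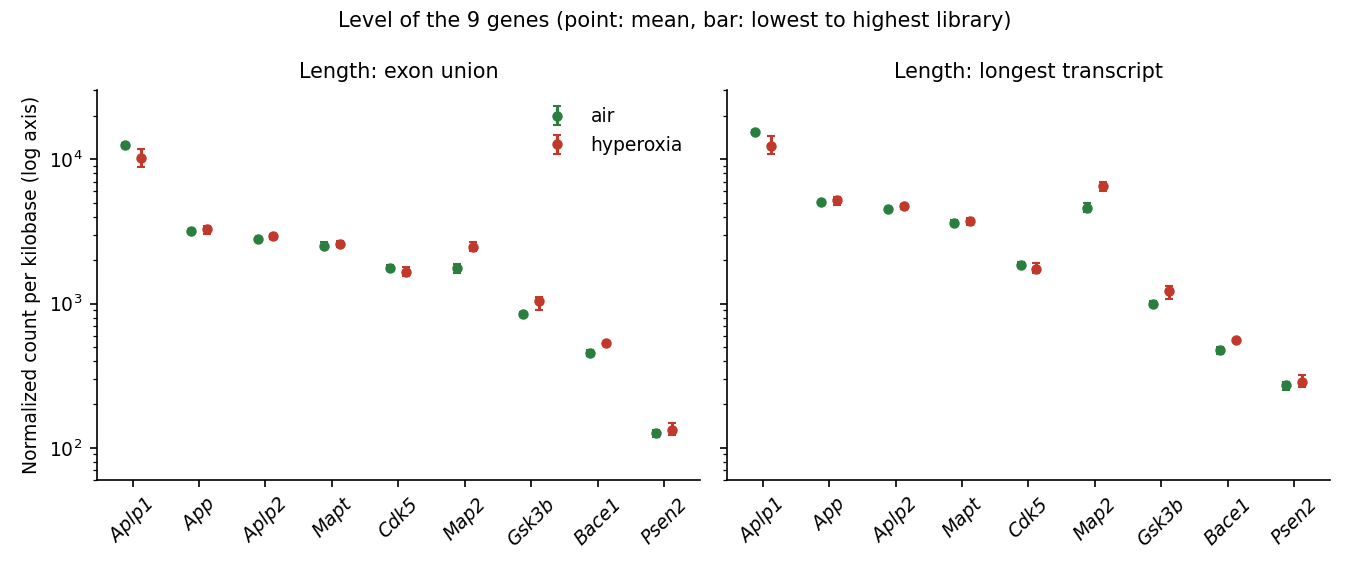
Level of the 9 genes as normalized counts per kilobase (log axis) by gene, in air (green) and hyperoxia (red), with exon union length on the left and the longest transcript on the right. Points are means and bars run from the lowest to the highest of 3 libraries. Aplp1 leads and Psen2 is last in both groups and by both lengths.

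Beyond the 9 genes, 12 lists of genes of the same pathways held 119 other genes, of which 117 were in the table and tested. Of these, 23 rose and 22 fell, beside 14.9% and 15.6% of all tested genes, and their median change was 0.00. In 6 of the 12 lists some genes rose and others fell. Of 19 APP adaptor, sorting and modulating genes, 3 rose and 3 fell. Sorcs1, a sorting receptor, rose from 326, 260 and 337 to 771, 421 and 484 (log2 fold change 0.82, adjusted p = 0.015). Apba1, the neuronal adaptor X11 alpha (0.48, adjusted p = 0.0023), and Vps35, a retromer subunit (0.40, adjusted p = 0.0069), rose as well, though Vps35 was at 0.16 and not called (adjusted p = 0.067) after the length and GC correction. The call of Sorcs1 was lost without air 2 (0.70, adjusted p = 0.068) and without the trend (adjusted p = 0.057), and 10 genes of this list were called without hyperoxia 2. Gga3, an adaptor that sends Bace1 to lysosomes, fell from 2384, 2200 and 2387 to 1777, 1713 and 1820 (-0.39, adjusted p = 0.0037).

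Of 12 genes whose products degrade or clear the amyloid peptide, 4 rose and 5 fell (75.0% called, beside 30.5% of all tested genes). The peptidase genes Mme (neprilysin; 0.72, adjusted p = 0.0058) and Ide (insulin-degrading enzyme; 0.41, adjusted p = 0.0025) rose. Mme was low, with 138, 133 and 127 in air and 240, 180 and 244 in hyperoxia. Clu, the secreted chaperone clusterin made mostly by astrocytes, fell from 42566, 43084 and 41850 to 28085, 33901 and 26062 (-0.54, adjusted p = 0.0045), and the peptidase gene Ece2 fell as well (-0.38, adjusted p = 0.0081). Hyperoxia 2 lay nearest air for Clu, as for Aplp1. The 9 calls of this list became 5 without air 2 and 5 after the length and GC correction.

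Of 14 other tau kinase genes, 4 rose and 3 fell. Prkaca, a catalytic subunit of protein kinase A, fell (-0.44, adjusted p = 0.0027) with Gsk3a, while Ttbk2 (0.39, adjusted p = 0.0057) and Mark3 (0.37, adjusted p = 0.0049) rose. After the length and GC correction the changes of Ttbk2 and Mark3 were 0.03 and 0.14 and neither was called, and 29.89% of the exon bases of Ttbk2 are shared with Cdan1 on the same strand. The 7 calls among these kinases became 4 without air 1, air 2, air 3 or hyperoxia 1. Of 10 genes for tau phosphatases and their regulators, 1 rose and 1 fell (20.0% called, below the 30.5% of all tested genes). Ppp3ca, the catalytic subunit of calcineurin, fell from 96818, 99220 and 89010 to 56358, 57217 and 67131 (-0.66, adjusted p = 0.0018), also under all 16 alternatives. Ppp2r2b, a regulatory subunit of phosphatase 2A, rose (0.27, adjusted p = 0.021), but not without air 2, air 3 or hyperoxia 1 (adjusted p from 0.088 to 0.096).

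Of 12 substrates and partners of GSK3 and CDK5, 5 rose and 0 fell by limma, edgeR and DESeq2 alike, with 1 lower at an unadjusted limma p under 0.05. The limma calls are 41.7% of the list, beside 30.5% of all tested genes, 14.9% higher and 15.6% lower. Dpysl3, a collapsin response mediator protein of growing axons, went from 5641, 5015 and 5229 to 10593, 9824 and 12697 (1.05, SE 0.10, adjusted p = 0.00033). Apc (0.76, adjusted p = 0.0058), Dcx, the doublecortin of migrating and young neurons (0.64, adjusted p = 0.0048), and Ctnnb1, beta-catenin (0.40, adjusted p = 0.0049), rose too. All 4 were called under all 16 alternatives. The summed level of the 12 genes was 78738 to 81226 in air and 99231 to 116345 in hyperoxia. Apc alone went from a mean of 17799 in air to 30573 in hyperoxia.

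Other microtubule genes went both ways. Of 22 further microtubule-associated proteins 4 rose and 5 fell (40.9% called, beside 30.5% of all tested genes). Map9 (0.60, adjusted p = 0.0065), Stmn2 (0.41, adjusted p = 0.0053) and Dclk1 (0.40, adjusted p = 0.039) rose, and Map1s fell (-0.40, adjusted p = 0.012). Dclk1 was at 33939, 23318 and 31635 in hyperoxia and at 21506 to 22569 in air, and its call was lost under 7 of the 16 alternatives. The 9 called genes of this list became 4 without air 1, 5 without air 3 and 14 without hyperoxia 2. Of 13 tubulins 2 rose, Tubb5 (0.35, adjusted p = 0.017) and the neuronal Tubb3 (0.31, adjusted p = 0.029), and 3 fell, among them Tuba8 (-1.02, adjusted p = 0.0075) and Tubb4a, the tubulin of mature neurons and oligodendrocytes (-0.60, adjusted p = 0.0021). The called tubulins were 38.5% of their list. Tubulin genes are close copies, so reads may be split between them. Tubb3 lost its call under 4 and Tubb5 under 2 of the 16 alternatives, and of the 5 tubulins called 2 were left without air 2 and 3 without air 3. Of 4 neurofilament genes 0 were called by limma, edgeR or DESeq2, and 1 was lower at an unadjusted limma p under 0.05, with a median of -0.13. Without hyperoxia 2, 2 of them were called.

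**Figure D5:**
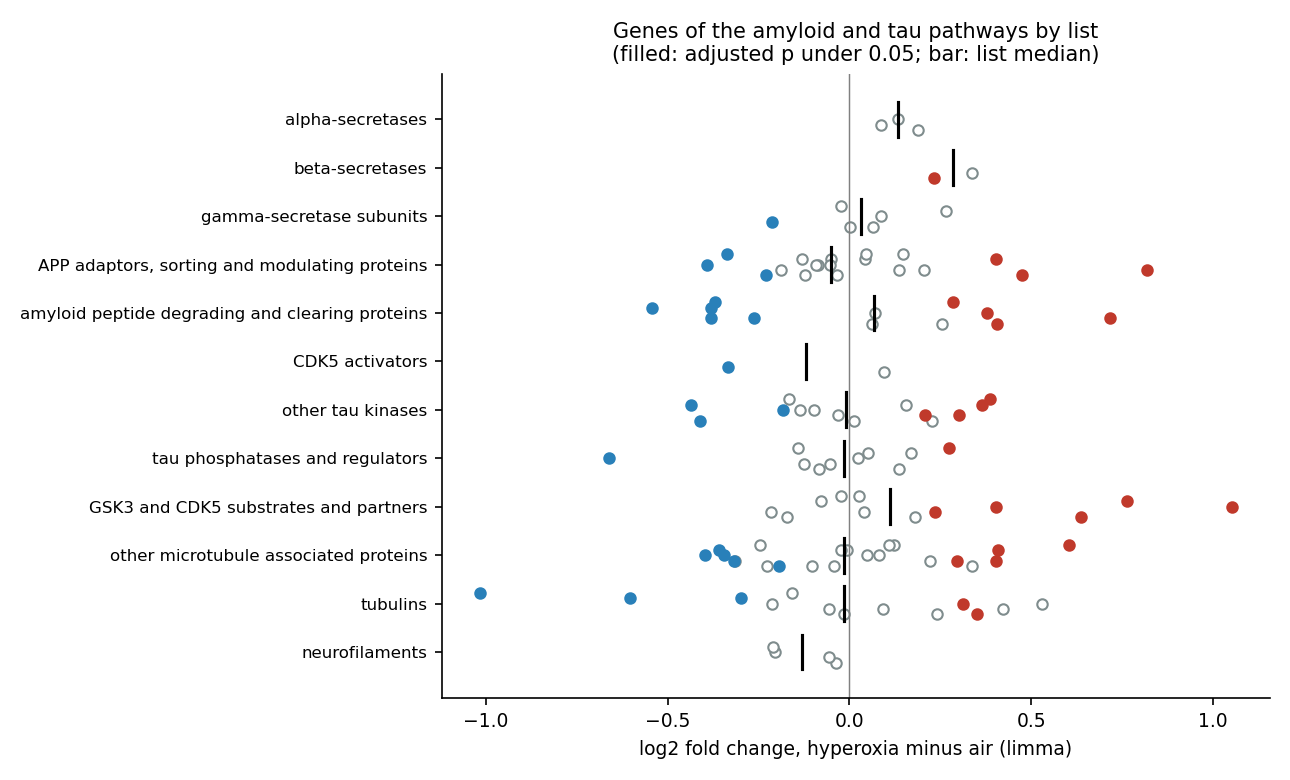
log2 fold change of each tested gene, hyperoxia minus air (x axis), by pathway list (y axis), with points offset for clarity, filled red for genes called higher, filled blue for genes called lower, open grey for genes not called, and a bar at the median of the list. Substrates and partners of GSK3 and CDK5 have 5 red points and no blue one, and 6 of the 12 lists hold both colours.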

How the data were processed

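Libraries of 3 air-exposed and 3 hyperoxia-exposed mice, separate animals by the labels, were compared. The authors deposited a signal per gene and library, which is a read count divided by 1 size factor per library; the submitters' processing notes name FastQC, STAR 2.5.3a, HTSeq and DESeq2. Build, annotation and strand setting: not given in the sources used here. A second deposited table holds the authors' own fold changes and p-values and was not used. All values (100%) were whole multiples of 1 read within 0.01, which gave reads for edgeR 4.0.16 and DESeq2 1.42.0 as alternatives. Replicates of a group differed by more than sampling noise (chi-square per gene 6.52 to 47.2).

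Genes with a mean of at least 10 were tested with limma 3.58.1 (R 4.3.3, mean-variance trend) on log2(value + 1), which understates changes of low genes. The alternatives changed the pseudocount (0.5 or 5), the filter (none, or a mean of 50), the scaling (quantile or TMM) and the trend (none), or added removal of length and GC trends (mgcv 1.9.3) or left out each library. Positions and lengths came from GENCODE M21 on GRCm38, in which 99.68% of the identifiers were found. The members, gene lists and tests were chosen with earlier results of these data known. Named were the 9 genes, the gamma-secretase and CDK5 activator genes, and up to 4 called genes without overlap per other list, by size of change. Alpha-secretases, Bace2 and markers were named after their values were seen. Some genes of the lists are not reported here. The script was tested on simulated data.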

Additional observations from a re-analysis of the deposited data

How the results depend on the processing

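Map2 kept its direction and its call under all 16 alternatives. The call of Aplp1 was lost with no filter (-0.33), quantile normalization (-0.13) and limma without trend (-0.33), and leaving out 1 library at a time its log2 fold change ran from -0.44 to -0.24. Bace1 lost its call without trend (0.23) and with the length and GC correction (0.0908), with 0.19 to 0.27 when 1 library was left out. Gsk3b lost it in the same cases (0.29 and 0.027), with 0.23 to 0.39. App was called higher with quantile normalization (0.27) and lower with the length and GC correction (-0.21). That correction also turned the uncalled changes of Mapt (-0.0308) and Cdk5 (0.0236). Leaving out 1 library turned uncalled changes near 0: Mapt ran from -0.0022 to 0.0753, Psen2 from -0.0203 to 0.119, Aph1c from -0.100 to 0.0636, Psenen from -0.186 to 0.153, and Aplp2 against App from -0.0576 to 0.0842. Psenen was -0.0033 with quantile and -0.0003 with TMM scaling. By the longest transcript, 4 genes changed place. Of the 9 genes, 1 was called without trend, and 1 to 4 with 1 library left out (1 without air 1, air 2, air 3 or hyperoxia 1, and 2 without hyperoxia 3). Over all genes 5425 were called, and 3048 to 7756 with 1 library left out, the fewest without air 1 and the most without hyperoxia 2. In the 12 lists 46 genes with Bace1 were called, 28 without trend and 27 to 66 with 1 library left out. The causes were not tested. The counting error reached the spread between mice of a group for some genes (Bace1 in hyperoxia, 1.87% against 1.62%, and the low Mme in air, 8.98% against 4.19%), and no alternative changed the depth. No paired analysis was possible because the animals carry different numbers in the groups and the columns are not tied to animals.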

Other observations

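Markers of cell types other than neurons are given beside the 30.5% of all tested genes that were called, a share that those of oligodendrocyte precursors (2 of 6) and microglia (1 of 7) hardly exceeded or did not reach. Of 6 markers of oligodendrocyte precursors, Pdgfra (0.58, adjusted p = 0.00059) and Cspg4 (0.41, adjusted p = 0.0076) rose and the other 4 were not called by limma, while 6 of 7 markers of mature oligodendrocytes fell. Mobp, a myelin protein gene, had 25620, 37053 and 42406 in air and 14147, 16639 and 17707 in hyperoxia (log2 fold change -1.09, adjusted p = 0.0019). Air library 1 was the lowest of the air libraries for it. Of 7 microglial markers, Cx3cr1 (0.42, adjusted p = 0.0029) rose. Aif1 (-0.39), C1qa (-0.32) and C1qb (-0.35) were lower but not called (limma adjusted p from 0.054 to 0.069). Csf1r (0.16), P2ry12 (0.03) and Tmem119 (0.06) were higher and not called. Of 7 endothelial markers 3 rose and 2 fell, among them Cldn5 (0.57, adjusted p = 0.0030) and Ly6c1 (-0.96, adjusted p = 0.00098). C1ql2, a marker of dentate granule cells, had 2434, 2400 and 2178 in air and 814, 1151 and 1020 in hyperoxia (-1.24, adjusted p = 0.00035). These genes were named after their values were seen.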
